A study of Homo sapiens with 12 samples.

Results

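The 10 genes described here act in Dishevelled and noncanonical Wnt signalling, and were followed across 12 RNA-seq libraries of MDA-MB-231, an established triple negative breast cancer cell line. They are the 3 Dishevelled genes DVL1, DVL2 and DVL3, the ligands WNT5A, WNT5B and WNT11, the receptor ROR1, and the planar polarity genes VANGL1, PRICKLE1 and CELSR2. They were chosen by symbol, and each symbol matched 1 of the 63568 identifiers of the count table. All 10 passed the filter on low counts, as did 25249 identifiers in all. The study had looked at genes of contact inhibition of locomotion in these same samples, so the values here are not independent evidence on that question.

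The cells carried a nuclear fluorescent label and were grown in Matrigel, a basement membrane gel. Untreated cultures were harvested on day 2 (C1) and day 4 (C2). Treated cultures received Paclitaxel, a drug that stabilises microtubules, on day 2 and were harvested on day 4, at 0.0005, 0.005, 0.05 or 0.5 μM (Pac0.0005, Pac0.005, Pac0.05 and Pac0.5). Each of the 6 conditions had 2 libraries labelled as biological replicates, all from 1 cell line. Therefore the design holds 4 untreated and 8 treated libraries, and C1 differs from the treated libraries in day as well as in drug.

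Wnt ligands bind Frizzled receptors together with co-receptors such as ROR1, and Dishevelled proteins relay the signal inside the cell. From Dishevelled the signal can stabilise β-catenin, the canonical branch, or act through small GTPases on the cytoskeleton, the planar polarity branch. CELSR, VANGL and PRICKLE proteins are core planar polarity components at cell contacts. When migrating cells collide and retract, known as contact inhibition of locomotion, Dishevelled and WNT11 have been placed upstream of small GTPases at the contact.

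Library totals ran from 38380629 to 79169121 counts, the lowest being C1 replicate 2. The defining genes of the line were abundant in every library, with VIM between 796.5 and 1366 CPM (counts scaled to the size of the library), whereas CDH1 stayed at or below 0.201 CPM. The 4 epithelial markers, CDH1 among them, summed to 5.03 to 7.37 CPM untreated and 5.33 to 6.27 CPM treated. EPCAM lay between 4.37 and 6.77 CPM, and the other 3 were under 1 CPM in every library. The 5 luminal markers summed to 33.6 to 65.8 CPM untreated and 36.5 to 48.7 CPM treated. Of these ERBB2 lay between 26.6 and 52.4 CPM and FOXA1 between 5.25 and 9.29 CPM, and 2 were under 1 CPM in every library. Fibroblast markers summed to 9.22 to 17 CPM in untreated and 12.9 to 21.4 CPM in treated libraries, and 2 of the 6 were under 1 CPM in every library. Within that list COL3A1 was between 0.129 and 0.344 CPM untreated and between 0.374 and 1.52 CPM treated. PDGFRA was between 0.115 and 0.388 CPM and between 0.602 and 2.16 CPM, and DCN at up to 0.0184 and 0.153 CPM. COL1A1 (4.8 to 8.08 and 6.09 to 9.85 CPM) and LUM (0.0702 to 0.202 and 0.0991 to 0.505 CPM) overlapped. PDGFRB overlapped too, at 3.61 to 9.15 and 4.05 to 8.27 CPM, with means of 6.58 CPM untreated and 5.91 CPM treated. Immune markers summed to 0.537 to 0.829 and 1.22 to 1.75 CPM, with 3 of 4 under 1 CPM in every library. The 2 endothelial markers summed to 0.0298 to 0.704 CPM untreated and 0.54 to 1.15 CPM treated. The part of these genes in the results for the 10 genes was not tested. In bulk RNA, fewer cells that use a gene and less RNA per cell cannot be told apart.

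The regions before the transcription starts of the 3 Dishevelled genes and VANGL1 are shown because DVL2 and VANGL1 were the genes of the group called most steadily, and DVL1 and DVL3 are the paralogs DVL2 is compared with. They are the 250 bases before the RefSeq start, from a table on GRCh38.p14, each found at 1 place on GRCh37, the build of the counts. The windows are chr1:1284799-1285048 on the minus strand for DVL1, chr17:7137837-7138086 on the minus strand for DVL2, chr3:183872915-183873164 on the plus strand for DVL3 and chr1:116184341-116184590 on the plus strand for VANGL1. None contains an annotated exon. Capitals mark matches, on either strand, to 8 short motifs that are spelled out after the sequences.
DVL1: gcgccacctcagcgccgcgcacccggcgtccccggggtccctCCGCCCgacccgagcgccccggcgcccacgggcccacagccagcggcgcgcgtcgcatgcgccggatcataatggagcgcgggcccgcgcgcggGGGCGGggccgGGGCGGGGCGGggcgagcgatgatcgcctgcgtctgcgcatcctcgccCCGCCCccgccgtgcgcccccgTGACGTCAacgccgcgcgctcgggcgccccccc
DVL2: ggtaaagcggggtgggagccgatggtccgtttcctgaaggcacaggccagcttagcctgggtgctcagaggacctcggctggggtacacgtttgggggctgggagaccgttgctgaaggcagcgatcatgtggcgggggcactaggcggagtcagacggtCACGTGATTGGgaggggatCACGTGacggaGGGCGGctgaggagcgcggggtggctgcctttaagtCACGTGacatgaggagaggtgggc
DVL3: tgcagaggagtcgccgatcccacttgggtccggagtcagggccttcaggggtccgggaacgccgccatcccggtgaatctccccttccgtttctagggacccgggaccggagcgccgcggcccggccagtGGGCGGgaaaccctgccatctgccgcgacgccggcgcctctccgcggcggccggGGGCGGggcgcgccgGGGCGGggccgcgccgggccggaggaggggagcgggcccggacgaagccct
VANGL1: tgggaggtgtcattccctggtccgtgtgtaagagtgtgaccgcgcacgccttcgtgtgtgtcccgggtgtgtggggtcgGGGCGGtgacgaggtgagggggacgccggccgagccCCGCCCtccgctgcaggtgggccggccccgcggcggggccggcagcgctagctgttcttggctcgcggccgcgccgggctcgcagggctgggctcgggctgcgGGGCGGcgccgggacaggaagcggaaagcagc

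The GC box, searched as GGGCGG, stood in all 4 windows, with 5 matches for DVL1 (a pair of them sharing a base), 1 for DVL2 and 3 each for DVL3 and VANGL1. Of 34788 such windows over all genes, 42.6% held at least 1. The E-box, searched as CACGTG after the DVL2 window had been seen, had 3 matches for DVL2 and was present in 6.3% of windows. A CCAAT box stood once in the DVL2 window and in 32.0% of all windows. A CRE, searched as TGACGTCA, stood once in the DVL1 window and in 1.6% of all windows. The 4 windows held no TATA box, searched as TATAAA (10.8% of windows). They held no AP-1 letters, searched as TGANTCA (6.6%). They held no ETS letters, searched as CCGGAA (14.5%). They held no TCF/LEF letters, searched as CTTTGA (11.2%). A match is a description of these letters and not a bound site.

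Per kilobase of exon, DVL1 was the most abundant of the 10 genes and WNT11 the least. On the RPKM scale (CPM per kilobase of the union of exons) the mean level was 19.4 ± 3.19 for DVL1, 8.69 ± 1.21 for DVL3 and 8.27 ± 1.79 for DVL2 (SD, n = 12 for each mean here). VANGL1, whose membrane protein recruits Dishevelled and PRICKLE, was at 10.6 ± 2.56, and ROR1 at 7.21 ± 1.03. WNT5B and WNT5A, a pair of closely related secreted ligands, were at 2.68 ± 0.327 and 2.45 ± 0.451. CELSR2, an adhesion receptor of the cadherin superfamily, was at 0.876 ± 0.405 and PRICKLE1 at 0.87 ± 0.168. WNT11 was at 0.206 ± 0.0611 RPKM, from only 12 to 51 counts per library.

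Only some neighbours in this order were apart. The lowest ROR1 library (6.22 RPKM) lay above the highest WNT5B library (3.15), and the lowest PRICKLE1 library (0.752) above the highest WNT11 library (0.304). Every other pair of neighbours had overlapping ranges over the 12 libraries. DVL1 was above VANGL1 and WNT5A above CELSR2 in 12 of 12 libraries, whereas DVL3 was above DVL2 in all 8 treated and 0 of the 4 untreated libraries. WNT5B was above WNT5A in 7 of the 8 treated libraries and 1 of the 4 untreated ones, so for both pairs the order of the means over 12 libraries is not the order in most untreated libraries.

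**Figure D1:**
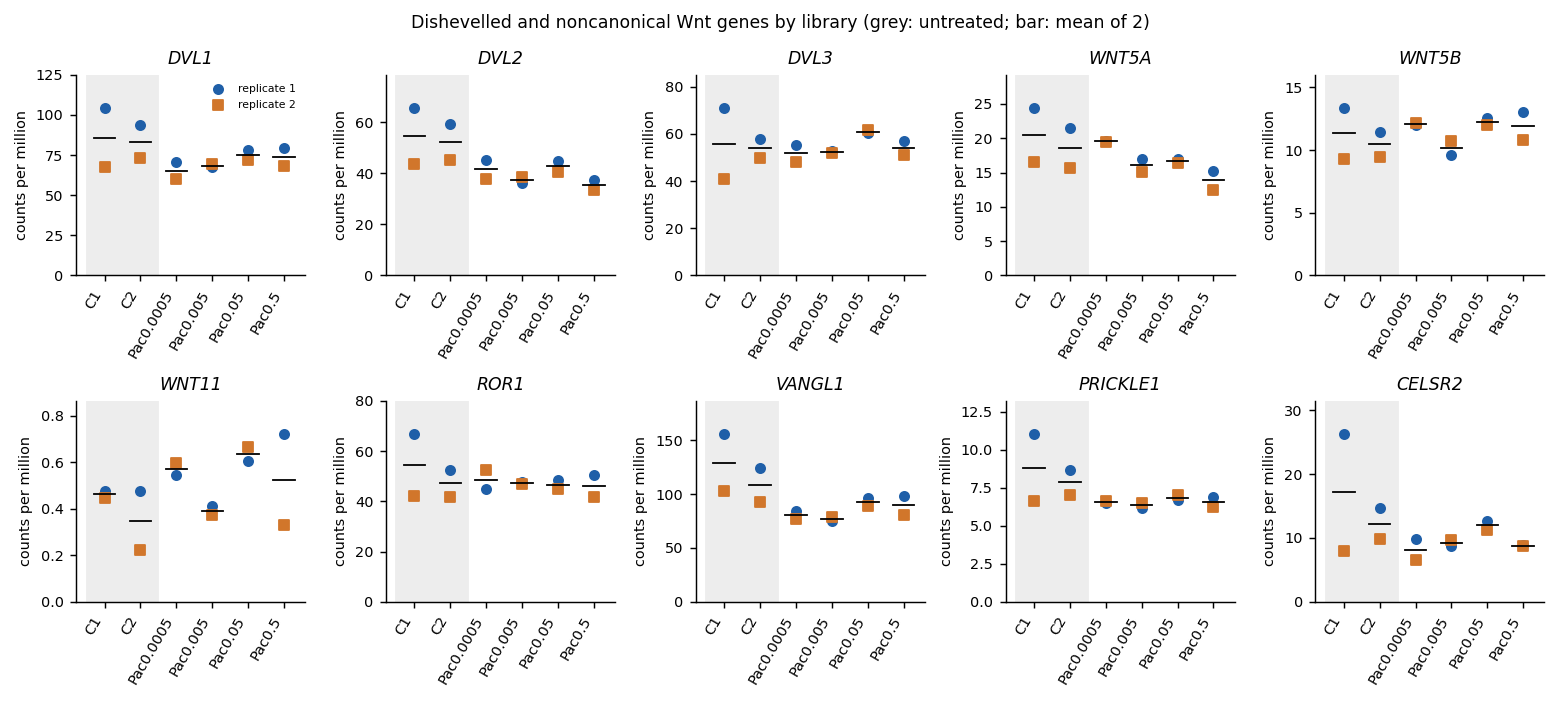
CPM (TMM scale) of each of the 10 genes in every library, by condition; circles are replicate 1, squares replicate 2, bars the mean of 2, and the grey band holds the untreated libraries. In C1 and C2 the circle lies above the square for all 10 genes, and the treated DVL2 libraries lie between 33.6 and 45.2 CPM against 43.8 to 65.6 CPM untreated.

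The first question was whether any single dose changed these genes against untreated cells of the same day. None of the 10 genes was called at 0.0005, 0.005, 0.05 or 0.5 μM against C2 (edgeR quasi-likelihood test, Benjamini-Hochberg adjusted p-value under 0.05 over all 25249 genes, two-sided). Over all genes 2.34%, 3.28%, 8.32% and 6.32% were called at these doses. At an unadjusted p-value under 0.05, 0, 2, 0 and 1 of the 10 passed. The 4 comparisons share the C2 libraries, and with 2 libraries on each side the SE of a log2 fold change was between 0.18 and 0.21 for all members but WNT11 and CELSR2, for which it was about 0.40 to 0.42. Alternative settings called DVL2 at 0.5 μM in 4 of 17, WNT5A at 0.5 μM in 2, VANGL1 at 0.0005 μM in 1 (the 4 libraries compared alone, edgeR adjusted p = 0.0424), and DVL2 and VANGL1 at 0.005 μM in 2 each, the fits without C1 replicate 1 and without C1 replicate 2. Those fits also called more of all genes, 12.4% and 12.1% at 0.005 μM and 18.5% and 18.8% at 0.5 μM, and the 4 libraries alone called 12% at 0.0005 μM and 11.4% at 0.5 μM. The other setting that called DVL2 at 0.5 μM, the fit without a filter on low counts, called 5.74% of the genes it tested.

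All 8 treated libraries had DVL2 values below both C2 libraries, and at 0.0005 and 0.05 μM 1 library was only just below. DVL2 was at 59.3 and 45.3 CPM in C2, and at 37.2 and 33.6 CPM in Pac0.5. Both Pac0.5 libraries were below both C2 libraries, with a log2 fold change of −0.56 (SE 0.20, edgeR adjusted p = 0.114). At 0.005 μM DVL2 was at 36.1 and 38.7 CPM, also below both C2 libraries (log2 −0.48, SE 0.20, edgeR adjusted p = 0.209). With each library left out in turn, the change ran from −0.76 to −0.36 at 0.5 μM and from −0.68 to −0.28 at 0.005 μM. At 0.0005 and 0.05 μM the fitted log2 fold changes were −0.33 and −0.29, and 1 library of each, at 45.2 and 45.0 CPM, came close to the lower C2 library.

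VANGL1 was at 124 and 92.4 CPM in C2. It was at 74.7 and 78.96 CPM in Pac0.005 (log2 −0.49, SE 0.20, edgeR adjusted p = 0.209) and at 84.2 and 77.0 CPM in Pac0.0005 (log2 −0.42, SE 0.20, edgeR adjusted p = 0.307). These 4 libraries lay below both C2 libraries. At the higher doses the values were 96.2 and 89.2 CPM in Pac0.05 and 98.2 and 80.9 CPM in Pac0.5, which overlapped C2. With each library left out in turn, the VANGL1 change at 0.005 μM ran from −0.70 to −0.27.

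DVL1 was at 93.4 and 72.8 CPM in C2. At the lower doses it was at 70.6 and 59.8 CPM in Pac0.0005 (log2 −0.35, SE 0.20, edgeR adjusted p = 0.401) and at 67.3 and 69.4 CPM in Pac0.005 (log2 −0.28, SE 0.20, edgeR adjusted p = 0.474). These 4 libraries lay below both C2 libraries. At the higher doses, with 78.2 and 72.0 CPM in Pac0.05 and 79.2 and 68.1 CPM in Pac0.5, 1 library of each dose lay within the C2 range (log2 −0.15 and −0.17, SE 0.20 for both). DVL3 was at 58.0 and 49.8 CPM in C2 and at 56.8 and 51.2 CPM in Pac0.5 (log2 0.00, SE 0.21). At 0.05 μM DVL3 was at 60.2 and 61.4 CPM, above both C2 libraries (log2 0.17, SE 0.21, edgeR adjusted p = 0.688).

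Among the ligands, WNT5A, the best known noncanonical Wnt, was at 21.4 and 15.7 CPM in C2 and at 15.3 and 12.4 CPM in Pac0.5 (log2 −0.42, SE 0.20, edgeR adjusted p = 0.238). With each library left out in turn this change ran from −0.64 to −0.19. WNT5B was at 11.4 and 9.48 CPM in C2 and at 13.1 and 10.8 CPM in Pac0.5 (log2 0.19, SE 0.19). WNT11 was between 0.22 and 0.47 CPM in C2 and between 0.33 and 0.72 CPM in Pac0.5, and at these counts no difference was detectable (log2 0.60, SE 0.42, edgeR adjusted p = 0.418). ROR1, a receptor tyrosine kinase-like co-receptor for WNT5A, had log2 fold changes between −0.03 and 0.04 over the 4 doses, each with an SE of 0.20.

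**Figure D2:**
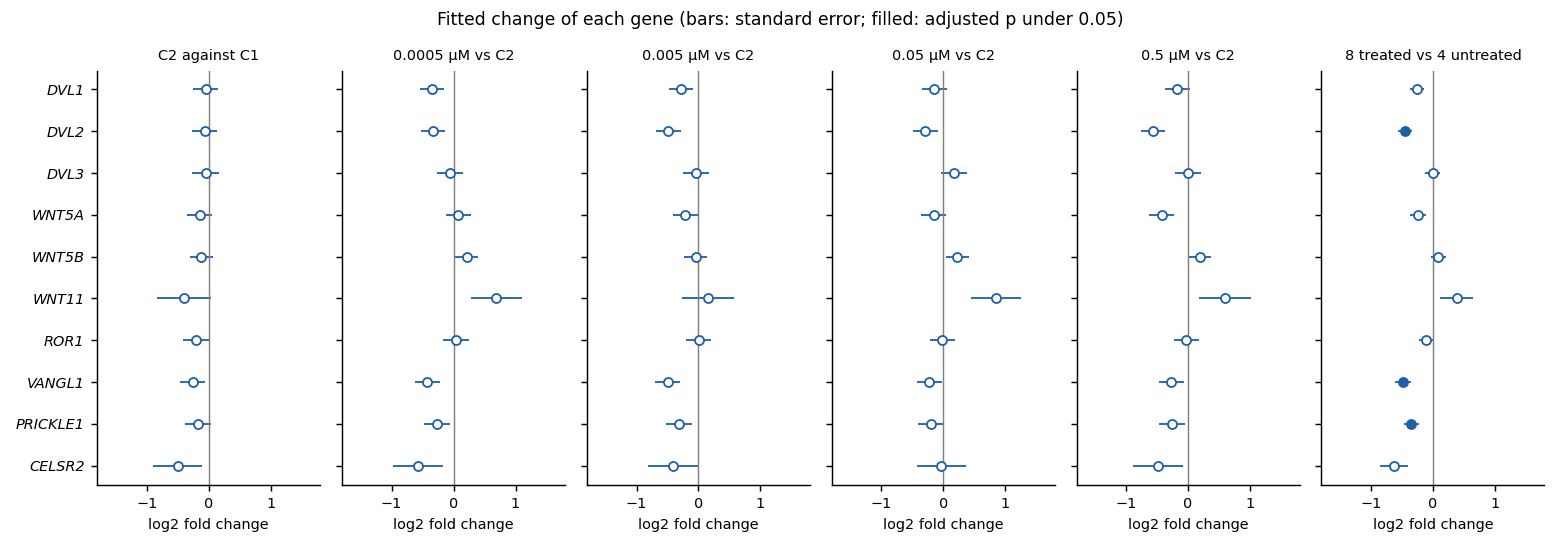
Fitted log2 fold change of each gene in 6 comparisons, with bars of 1 standard error; filled points have an adjusted p-value under 0.05. The 4 doses and C2 against C1 have no filled point, and the 8 treated against the 4 untreated libraries have 3, DVL2 (−0.45), VANGL1 (−0.48) and PRICKLE1 (−0.35).

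A second question was whether time in culture alone moved these genes. Between C1 and C2 none of the 10 was called, against 0.325% of all genes, and none had an unadjusted p-value under 0.05. All 10 fitted changes were below 0 (median −0.16 on the log2 scale), as were those of 66.4% of the 12245 genes with a mean of at least 5 CPM (median −0.09), and the SE of each was larger than its change except for CELSR2, VANGL1 and ROR1. CELSR2 was at 26.2 and 8.02 CPM in C1 and at 14.6 and 9.79 CPM in C2 (log2 −0.50, SE 0.40). One C1 library was therefore far above the other. The fit without C1 replicate 2 left that library as the whole of C1, assumed to vary like the other groups, and there CELSR2 was called (log2 −1.07, edgeR adjusted p = 0.00508), as were 7.03% of all genes.

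Next, the 8 treated libraries were compared with the 4 untreated ones. Here 3 of the 10 genes were called, all lower in treated libraries: DVL2, VANGL1 and PRICKLE1. That is 30% of the 10, against 24.4% of all genes called in this comparison, 11.3% called lower and 13.1% called higher. Among the 12245 genes with a mean of at least 5 CPM, 25.1% were called and 20.4% were called lower, and their median change was −0.14 on the log2 scale. The median over the 10 genes was −0.25, beside −0.00 over all genes tested, and 5 had an unadjusted p-value under 0.05. A share of 30% is close to the share among all genes, so the count is not a result about these 10 genes.

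DVL2 ran from 43.8 to 65.6 CPM (median 52.3) in the 4 untreated libraries and from 33.6 to 45.2 CPM (median 38.3) in the 8 treated ones. Of the 8 treated libraries 6 lay below the lowest untreated one, C1 replicate 2. The log2 fold change was −0.45 (SE 0.12, edgeR adjusted p = 0.0103). DVL2 lies on the minus strand of chromosome 17, from 7128661 to 7137836 on GRCh37, and shares no exon with another gene.

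VANGL1 ran from 92.4 to 156 CPM (median 113) untreated and from 74.7 to 98.2 CPM (median 82.5) treated. Again 6 of 8 treated libraries lay below the lowest untreated one, here C2 replicate 2. The log2 fold change was −0.48 (SE 0.12, edgeR adjusted p = 0.00948). It lies on the plus strand of chromosome 1, from 116184591 to 116240845.

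PRICKLE1, a cytoplasmic partner of VANGL proteins, ran from 6.59 to 11.0 CPM (median 7.85) untreated and from 6.18 to 7.03 CPM (median 6.55) treated. Of the 8 treated libraries 4 lay below the lowest untreated one (log2 −0.35, SE 0.12, edgeR adjusted p = 0.0447). It lies on the minus strand of chromosome 12, from 42850559 to 42984157. Of its exons 438 bases (5.327%) are shared with exons of PPHLN1 on the opposite strand, which had 57406 counts over the 12 libraries, and 1858 bases with an antisense RNA that had 71. Whether the counting used strand is not given in the sources used here, so reads of PRICKLE1 and PPHLN1 in the shared part may not be told apart. DVL1 shares 39 bases of exon with TAS1R3 and WNT11 204 bases with an antisense RNA, both on the opposite strand.

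The other 7 genes were not called. CELSR2 ran from 8.02 to 26.2 CPM untreated and from 6.55 to 12.7 CPM treated (log2 −0.63, SE 0.23, edgeR adjusted p = 0.0557), and without C1 replicate 1 its log2 fold change was −0.20 (edgeR adjusted p = 0.500). DVL1 had a log2 fold change of −0.26 (SE 0.11, edgeR adjusted p = 0.107) and WNT5A one of −0.24 (SE 0.13, edgeR adjusted p = 0.205). Without C1 replicate 1 they were at −0.15 and −0.12. For DVL3 the fitted change was −0.00 (SE 0.12), with medians of 53.9 CPM untreated and 54.0 CPM treated. ROR1, WNT5B and WNT11 had log2 fold changes of −0.11, 0.09 and 0.39 with SE of 0.12, 0.12 and 0.27. For none of the 10 genes did the treated libraries separate completely from the untreated ones, which they did downwards in 5.77% and upwards in 7.39% of all genes, and in 10.5% and 2.82% of genes with a mean of at least 5 CPM, which 9 of the 10 have.

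The calls depended on which untreated libraries were used. In C1, C2 and Pac0.5 all 10 genes were higher in replicate 1 than in replicate 2, with median log2 differences of 0.612, 0.374 and 0.244. Of genes with a mean of at least 5 CPM, 57.3%, 65.3% and 64.5% were higher in replicate 1 of these groups, with median differences of 0.116, 0.089 and 0.059. In Pac0.0005, Pac0.005 and Pac0.05 6, 4 and 7 of the 10 were higher in replicate 1. For comparison, the median change of these genes between treated and untreated libraries was −0.25.

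Without C1 replicate 1, none of the 10 genes was called, and the adjusted p-values of edgeR became 0.0517 for DVL2 (log2 −0.34), 0.0539 for VANGL1 (log2 −0.33) and 0.262 for PRICKLE1 (log2 −0.19). Over all genes 15.6% were called in that fit, against 24.4% with every library. Without C1 replicate 2, 5 were called, with DVL1 (log2 −0.34) and CELSR2 (log2 −0.81) added, and 26.4% of all genes. With C2 as the only control, 1 was called, DVL2 (log2 −0.40, edgeR adjusted p = 0.0342), and 13.6% of all genes. With both replicates 1 of the untreated groups left out, a setting chosen after the data had been seen, none was called, against 10.9% of all genes, and DVL2 had a log2 fold change of −0.18 (edgeR adjusted p = 0.359). Over all 18 alternatives DVL2 was called in 16, VANGL1 in 15, PRICKLE1 in 7 and CELSR2 in 5.

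**Figure D3:**
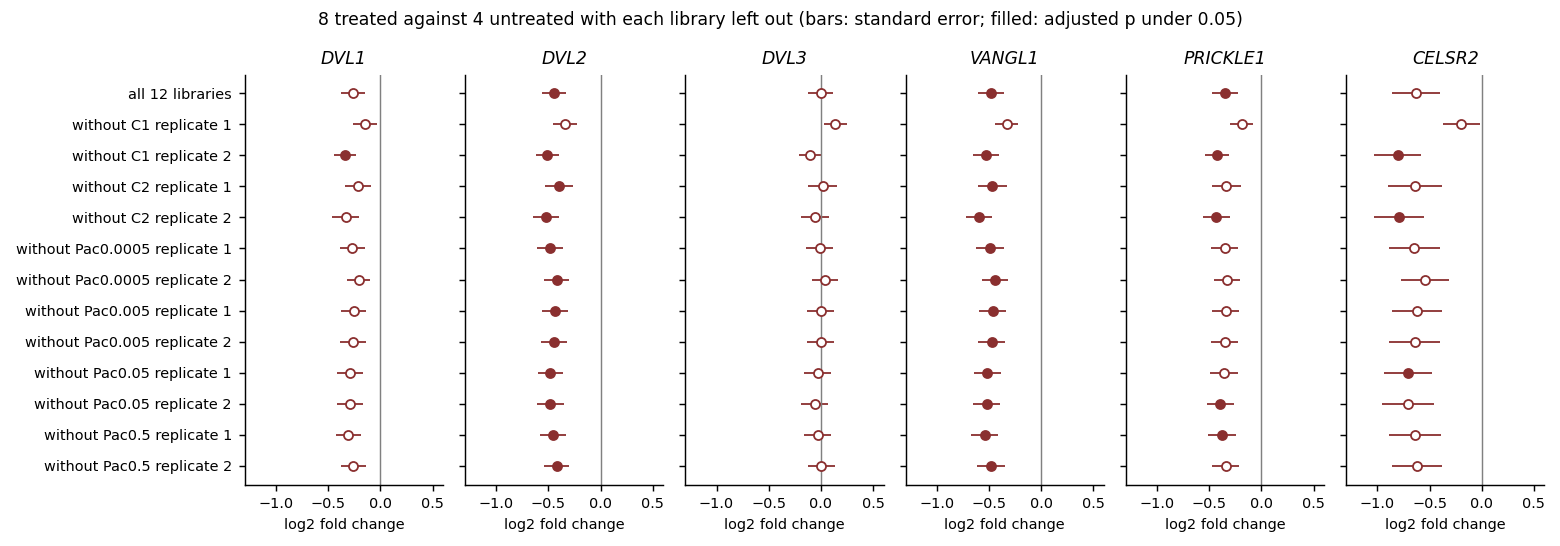
Log2 fold change of 6 genes in 8 treated against 4 untreated libraries, with all 12 libraries and with each left out in turn; bars are 1 standard error and filled points have an adjusted p-value under 0.05. DVL2 and VANGL1 stay filled except without C1 replicate 1, and DVL3 lies between −0.10 and 0.14.

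The gap between untreated replicates also moved with base composition. Of the 11091 genes with a mean of at least 5 CPM and a transcript sequence, the tertile with the lowest GC content had a median log2 difference of −0.24 between C1 replicates 1 and 2, the middle tertile 0.14 and the highest tertile 0.54. Of the 10 genes 6 were in the highest tertile, 3 in the middle and 1, WNT5A with 42.3% GC, in the lowest. WNT5A had a C1 difference of 0.57, and VANGL1, with 44.9% GC, one of 0.59. Between C2 replicates the medians of the tertiles were 0.01, 0.09 and 0.20. In treated against untreated libraries they were −0.15, −0.13 and −0.16. The part of base composition in the members' values was not tested.

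The ratio of 2 genes within a library does not depend on how libraries are scaled, so paralogs were set against each other. These ratios are given as a description, without a test. DVL3 per DVL2 count was 1.08 and 0.928 in C1 and 0.977 and 1.10 in C2. With drug it was 1.22 and 1.27 in Pac0.0005, 1.46 and 1.34 in Pac0.005, 1.34 and 1.51 in Pac0.05, and 1.53 in both Pac0.5 libraries. All 8 treated libraries were above all 4 untreated ones, and the means on the log2 scale were 0.321, 0.486, 0.507 and 0.609 from the lowest to the highest dose. DVL2 was therefore lower relative to DVL3 in both libraries of every dose than in any untreated library.

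DVL1 per DVL3 count was 1.47 and 1.66 in C1 and 1.61 and 1.46 in C2, and between 1.17 and 1.40 in the 8 treated libraries, again without overlap. DVL1 per DVL2 count was between 1.54 and 1.61 in all 4 untreated libraries and 1.56 and 1.58 in Pac0.0005, but 2.13 and 2.03 in Pac0.5. Such separation was not rare. Of 12244 other genes with a mean of at least 5 CPM, the ratio to DVL2 separated treated from untreated libraries for 17.1%, the ratio to DVL3 for 11.1% and the ratio to DVL1 for 7.5%. A ratio shows unequal change, and not which of the genes changed.

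WNT5A per WNT5B count was lowest at the highest dose. It was 1.83 and 1.77 in C1, 1.87 and 1.66 in C2, 1.63 and 1.61 in Pac0.0005, 1.76 and 1.41 in Pac0.005, 1.36 and 1.37 in Pac0.05 and 1.17 and 1.15 in Pac0.5. The treated and untreated libraries overlapped through 1 library of Pac0.005, while both higher doses lay below every untreated library. The ratio to WNT5A separated treated from untreated libraries for 4.42% of other genes and the ratio to WNT5B for 15%.

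**Figure D4:**
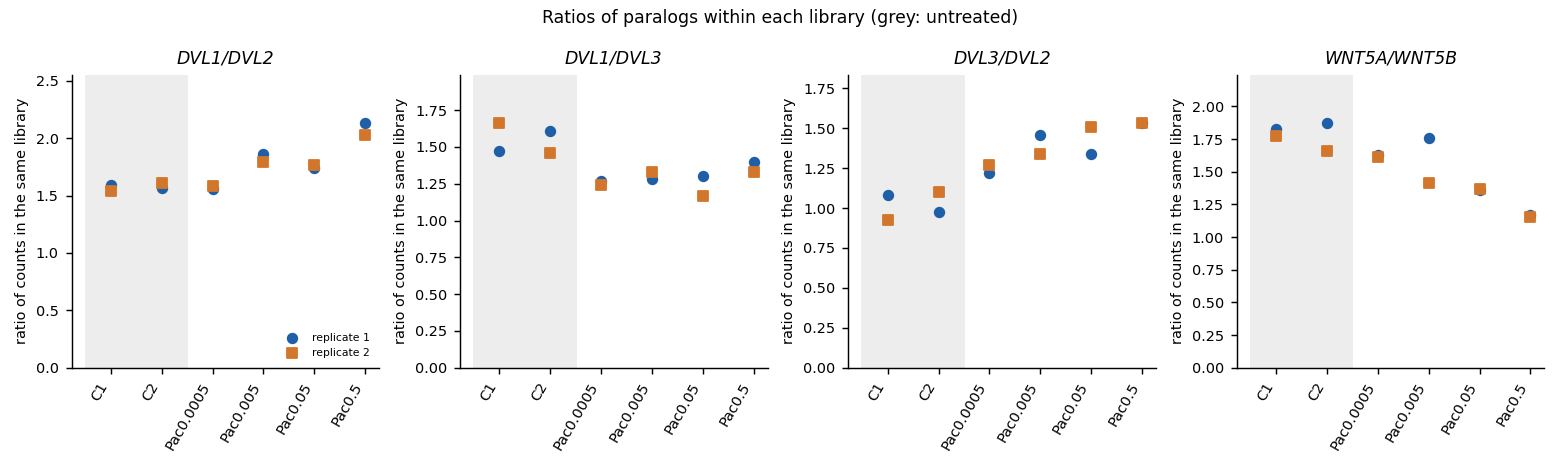
Ratio of the counts of paralogs within each library, by condition; circles are replicate 1, squares replicate 2, and the grey band holds the untreated libraries. DVL3/DVL2 lies between 0.928 and 1.10 untreated and between 1.22 and 1.53 treated, and WNT5A/WNT5B drops to 1.17 and 1.15 in Pac0.5.

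A trend with dose over the treated libraries, fitted as a slope per 10-fold dose and without the untreated replicates, called none of the 10 genes, against 3.06% of all genes. WNT5A had the most negative slope. Its treated values were 19.7 and 19.5 CPM in Pac0.0005, 17.0 and 15.1 in Pac0.005, 17.0 and 16.4 in Pac0.05, and 15.3 and 12.4 CPM in Pac0.5. The slope was −0.14 log2 units per 10-fold dose (SE 0.04, edgeR adjusted p = 0.0827), and 2 of 16 alternatives called it, DESeq2 (adjusted p = 0.0299) and no filter on low counts (edgeR adjusted p = 0.0457). Of the 10 slopes 7 were above 0 and 3 below (median 0.03). CELSR2 had a slope of 0.07 (SE 0.07), VANGL1 one of 0.07 (SE 0.04), DVL1 one of 0.07 (SE 0.04), DVL3 one of 0.04 (SE 0.04) and DVL2 one of −0.05 (SE 0.04).

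Beyond the 10 genes, 118 genes of the wider Wnt and polarity pathway were tested, in 9 lists, and read against the same 11.3% called lower and 13.1% called higher in treated libraries. These shares depended on level. Of genes with a mean of at least 5 CPM 20.4% were called lower and 4.69% higher, and of genes under 1 CPM 1.01% lower and 22.2% higher. Of these lists 8 are described here, with the number of the 18 alternatives in which each gene named for treated against untreated libraries was called.

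Several receptors were called lower in treated libraries. Of 13 other receptors and co-receptors tested, 6 were called lower and 0 higher, and the median change was −0.23 on the log2 scale: FZD1 (−0.63), FZD2 (−0.50), FZD6 (−0.49), LRP5 (−0.62), PTK7 (−0.52) and RYK (−0.23). FZD6, a Frizzled linked to planar polarity, was at 137.1 to 184.4 CPM untreated and 88.6 to 121.6 CPM treated, without overlap, and kept its call in all 18 alternatives (edgeR adjusted p = 0.0029). LRP5, the β-catenin co-receptor, was at 378.6 CPM in C1 replicate 1 and 156.3 CPM in replicate 2, and it overlapped the treated range of 126.9 to 190.3 CPM. FZD1 was called in 17 of the 18 alternatives, PTK7 in 16, FZD2 in 15, LRP5 in 13 and RYK in 5. Without C1 replicate 1 FZD2 (−0.34), PTK7 (−0.36), LRP5 (−0.33) and RYK (−0.25) were not called, nor was LRP5 without C2 replicate 1. Without both untreated replicates 1 LRP5 was at −0.04, FZD2 at −0.17, PTK7 at −0.17 and FZD1 at −0.27 on the log2 scale, and none of these was called.

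Of 17 other planar polarity genes, 3 were called lower and 3 higher. CELSR1, like CELSR2 an adhesion receptor, ran from 29.1 to 85.6 CPM untreated and from 25.2 to 38.8 CPM treated (log2 −0.66, edgeR adjusted p = 0.0275). It was called in 12 of 18 alternatives, and its log2 fold change was −0.27 without C1 replicate 1 and −0.04 without both untreated replicates 1. INVS, which targets cytoplasmic Dishevelled, was at 16.2 to 17.7 CPM untreated and 11.2 to 14.1 CPM treated (log2 −0.38, edgeR adjusted p = 0.00558), and GIPC1 had a log2 fold change of −0.28. INVS was called in all 18 alternatives and GIPC1 in 10, not including the fit without C1 replicate 1, which did not call CELSR1 either. VANGL2, the paralog of VANGL1, and DCHS2, a large protocadherin, were called higher but stayed low, at up to 0.042 CPM untreated and up to 0.202 and 0.276 CPM treated. DCHS1 was called higher too, at 0.388 to 0.843 CPM against 0.493 to 1.63 CPM. DCHS2 was called in all 18 alternatives, VANGL2 in 17 and DCHS1 in 9.

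Of 12 Dishevelled partners tested, 3 were called lower: KLHL12, an adaptor for Dishevelled ubiquitination (log2 −0.37), DAAM2, a formin that binds Dishevelled (−0.42), and SMURF2, a ubiquitin ligase of the planar polarity branch (−0.22). KLHL12 was called in 17 of 18 alternatives and DAAM2 in 11, but SMURF2 in only 3, and without C1 replicate 1 DAAM2 (−0.37) and SMURF2 (−0.22) were not called.

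The calcium branch, which noncanonical ligands can also engage, had 6 of 17 genes called lower and 3 higher. NFATC2, a calcium-activated transcription factor, was at 9.25 to 16.9 CPM untreated and 6.60 to 9.003 CPM treated, without overlap (log2 −0.76, edgeR adjusted p = 0.000788). NFATC2 was called in all 18 alternatives. PRKCA had a log2 fold change of −0.58 and was called in 15, but it was at −0.37 and not called without C1 replicate 1, nor was it called without C2 replicate 1. PLCB4, CAMK2B and CAMK2A were called higher in treated libraries but reached at most 0.309, 0.365 and 0.386 CPM, with calls in 18, 16 and 9 of the 18 alternatives. CAMK2A was not called without C1 replicate 1 (0.80).

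Among 11 other Wnt ligands and secretion genes tested, WLS, the carrier that brings Wnt proteins to the cell surface (log2 −0.34), and WNT3 (−0.53) were called lower, and WNT2B (0.81), WNT10A (1.30) and WNT16 (2.16) higher. WNT2B ran from 2.87 to 7.53 CPM untreated and from 5.29 to 13.2 CPM treated. Of the 18 alternatives WNT3 and WNT10A were each called in 17, WNT16 in 16, WNT2B in 12 and WLS in 9. Of 16 β-catenin core genes 2 were called lower, PYGO1 (−0.61) and PYGO2 (−0.53). Of 9 β-catenin target genes, CCND1 (−0.58) and SP5 (−0.62) were called lower and LGR5 (1.40) higher. LGR5 stayed low, at 0.164 to 0.351 CPM untreated and 0.442 to 1.1 CPM treated. PYGO1 and LGR5 were called in all 18 alternatives, PYGO2 and CCND1 in 16 and SP5 in 15, and without C1 replicate 1 PYGO2 (−0.28), CCND1 (−0.34) and SP5 (−0.38) were not called, nor were WLS (−0.30), WNT2B (0.61), DKK2 (1.33) and DKK3 (0.28). Among 5 secreted antagonists tested, FRZB (2.60), DKK2 (1.73) and DKK3 (0.36) were called higher and none lower. DKK2 was called in 11 of 18 alternatives, with a log2 fold change of 2.66 without C2 replicate 2, and DKK3 in 10. Levels of DKK2 were low, at up to 0.147 CPM untreated and up to 0.365 CPM treated. FRZB, a Wnt-binding antagonist, was the list gene called at all 4 doses against C2, at 0.049 and 0.055 CPM in C2 and 0.340 to 0.731 CPM in the treated libraries, and it kept its call in treated against untreated libraries in all 18 alternatives. At each dose it was called in 16 of 17, the exception being the fit without C2 replicate 1.

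Other genes of these 8 lists were called at 1 to 3 of the doses against C2. NFATC2 was called lower at 0.005 μM (log2 −0.96) and 0.5 μM (log2 −0.99), in 7 and 13 of 17 alternatives. FZD6 (−0.55), NFATC4 (−0.59) and PYGO1 (−0.64) were called lower at 0.05 μM, as were PLCB1 (−0.54) and NLK (−0.53), 2 genes named after their values were seen, each in 6 of 17 alternatives. LGR5, with a mean of 0.544 CPM, was called higher at 0.005 μM (1.56), 0.05 μM (2.01) and 0.5 μM (1.73), in 9, 15 and 13 of 17. The remaining calls were higher and, like those of LGR5, in genes with a mean under 1 CPM. They were WNT10A (1.75, in 13 of 17 alternatives), CAMK2B (1.57, 7 of 17), DCHS2 (2.87, 6 of 16) and PLCB4 (3.72, 13 of 17) at 0.05 μM. At 0.5 μM they were WNT16 (2.55, 13 of 17), DCHS2 (3.08, 9 of 17) and PLCB4 (3.46, 6 of 16). WNT16 was also the gene of these lists called in the slope on dose (0.59 log2 units per 10-fold dose, SE 0.15), in 8 of 16 alternatives.

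**Figure D5:**
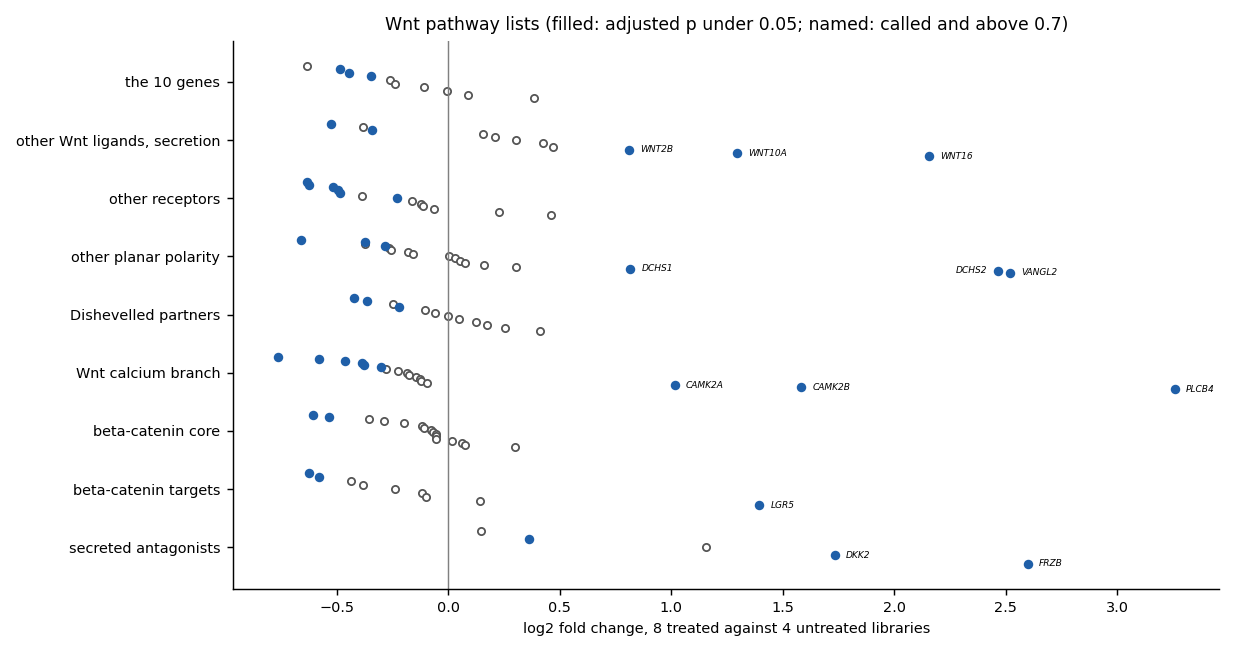
Log2 fold change of every tested gene of the 10 genes and 8 of the wider lists, in 8 treated against 4 untreated libraries; filled points have an adjusted p-value under 0.05 and names are given for called genes above 0.7. Called receptors lie between −0.63 and −0.23, and the named genes have means under 1 CPM, except WNT2B and DCHS1.

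Some genes followed the members closely over the 12 libraries. The most similar profiles among 11090 named genes with a mean of at least 5 CPM, by Pearson r of log2 CPM, were LRRC8A for DVL2 (0.993), ARHGAP39 for DVL3 (0.988), NADK for DVL1 (0.970), NRM for VANGL1 (0.978), CABLES2 for PRICKLE1 (0.983), TNPO2 for CELSR2 (0.982), PIP4K2A for WNT5A (0.967), PTP4A1 for WNT5B (0.941) and GGCX for ROR1 (0.923). Second came CCN1, TMEM222, SLC4A2, LMNB2, PIGQ, MAML1, LITAF, SLC35F2 and FBN1 in the same order of members. An r over 0.9 was common, with 631 genes for DVL2 and 726 for PRICKLE1 but 15 for ROR1. Among the members themselves r was 0.923 for VANGL1 and PRICKLE1 and 0.511 for DVL2 and DVL3. The points share libraries, depth and replicate differences, so these values carry no p-value.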

How the data were processed

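RNA was measured in 12 bulk libraries, 2 for each of 6 conditions. Per the labels and the study's methods, reads were trimmed (Trimmomatic 0.39), checked (FastQC 0.11.9) and aligned with STAR 2.7.5 to GRCh37 (hg19), and the authors deposited whole-number counts of uniquely aligned exonic reads per gene, not normalized. Annotation release and strand setting are not given in the sources used here. All 12 single files held the values of the series-wide table, which was used.

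Counts were analysed in R 4.3.3 with edgeR 4.0.16 (TMM, filterByExpr by condition, robust quasi-likelihood), with limma 3.58.1 loaded and DESeq2 1.42.0 as an alternative. All 12 libraries entered 1 model for the doses and days, and the 8 treated against 4 untreated libraries and the slope on log10 dose had fits of their own. P-values were Benjamini-Hochberg adjusted over 25249 genes, and a gene was called under 0.05. The SE was taken from the log2 fold change and its F statistic. The biological coefficient of variation was 15.6%. Log2 CPM used a prior count of 2. Of 63568 identifiers 55665 had a symbol, and PRICKLE4 and PECAM1 were not matched. Exon lengths came from GENCODE on GRCh37, and GC content from the longest transcript. No other identifier had counts within 1% of a member's in every library. Library totals were 38380629 to 79169121 counts.

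All members are named, with list genes called in any comparison (at most 6 a list, by size of change) and the 2 most similar genes per member. For likeness a gene needed a mean of at least 5 CPM. Members, lists and comparisons were chosen with earlier results of these data known. Alternatives were DESeq2, RLE normalization, no filter, a replicate block, fits of only the 4 libraries compared, and leaving out each library. The results of 1 of the 9 wider lists, which holds 2 genes the naming rule adds, are not reported here. Procedures were tested on simulated counts with 1 spread for every gene. The simulation held no gap between replicates like that in C1 and C2.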

Additional observations from a re-analysis of the deposited data

Results flagged for a closer look

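Among 20 sets of values examined (each gene's CPM in the 4 untreated and in the 8 treated libraries), 1 held a library far from the others. WNT11 was at 0.221 CPM in C2 replicate 2, while the nearest untreated library was at 0.447 CPM, and the gap covered 0.883 of the range. The threshold is a 95% critical value, which by its construction is passed by chance in about 1 of 20 such sets; this rate was not measured here. At 12 to 51 WNT11 counts per library the counting error is large.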

How the results depend on the processing

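Of the 7 counts of members called, that at 0.05 μM stayed at 0 under all 17 alternatives. With DESeq2 1173 (0.0005 μM), 1362 (0.005 μM), 271 (C2 against C1) and 1696 genes (slope) were called over all genes, and 1 member in the slope. Without a filter these were 1480, 1909, 390 and 1459 genes, 2807 at 0.5 μM, and 1 member each at 0.5 μM and in the slope. With the 4 samples of a comparison alone 2624 (0.0005 μM), 2592 (0.005 μM), 2578 (0.5 μM) and 0 genes (C2 against C1) were called, and 1 member each at 0.0005 and 0.5 μM. Treated against untreated, C2 as the only control gave 3408 genes and 1 member, and leaving out both untreated replicates 1 gave 2919 genes and 0 members; both were chosen after seeing the data. The cause was not tested.

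Samples of 1 replicate number deviated together in some pairs of groups and not in others. Over 15 pairs the correlation of deviations ran from -0.6 to 0.682, with a median of 0.134, and was over 0.1 in 8. These values do not settle whether replicate numbers pair the samples. With the replicate block 420 genes were called in the slope, and 3 members in treated against untreated libraries.

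Leaving out each library in turn, between 144 and 2552 genes were called at 0.0005 μM, 85 and 3316 at 0.005 μM, 321 and 4843 at 0.05 μM, 129 and 5046 at 0.5 μM, 47 and 2682 for C2 against C1, 4182 and 7078 for treated against untreated, and 123 and 990 for the slope. Members called were 0 to 2 at 0.005 μM, 0 to 2 at 0.5 μM, 0 to 1 for C2 against C1 and 0 to 5 for treated against untreated libraries.

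Some uncalled changes near 0 turned sign. In treated against untreated libraries DVL3 (log2 -0.00) became 0.0036 without a filter, 0.0124 with the replicate block, 0.0335 with C2 as the only control and 0.274 without both untreated replicates 1, and ran from -0.104 to 0.139 over the libraries left out (0.0169 without C2 replicate 1, 0.04 without Pac0.0005 replicate 2, 0.0034 without Pac0.5 replicate 2). ROR1 ran from -0.199 to 0.0454 (without C1 replicate 1) over the libraries left out, and became 0.0112 with C2 alone and 0.166 without both replicates 1, where DVL1 (0.0093), WNT5A (0.0411) and CELSR2 (0.0944) also turned. At 0.5 μM DVL3 (log2 0.00) became -0.0103 with DESeq2 and with RLE, -0.0026 without a filter and -0.114 to 0.113 over the libraries left out (-0.0047, -0.0038, -0.0046, -0.0032, -0.004, -0.0042, -0.0044, -0.0427 and -0.105 in 9 of them), and DVL1 ran from -0.354 to 0.0138 (without C2 replicate 1). WNT11 had the fewest counts of the members, 12 to 51 per library; the effect of depth on the calls was not tested.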
